A study of Mus musculus with 35 samples.

Results

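The 9 genes described here encode the core machinery of inflammasomes and of lytic cell death in mouse myeloid cells: the sensors Nlrp3, Nlrp1b and Nlrc4, the adaptor Pycard, the inflammatory caspases Casp1 and Casp4, the pore-forming protein gene Gsdmd, and the necroptosis genes Mlkl and Ripk3. They were taken by symbol from the deposited count table, and all 9 were found among its 53379 gene identifiers. In an inflammasome, a sensor protein recognizes a danger signal in the cytosol and assembles, directly or through the adaptor, a platform on which caspase-1 is activated. Caspase-1 matures IL-1β and IL-18 and cuts gasdermin D, whose fragments form pores in the plasma membrane, and the ensuing lytic death is called pyroptosis. Caspase-4 of the mouse, also known as caspase-11, is activated by cytosolic lipopolysaccharide and cuts gasdermin D without a sensor platform, whereas RIPK3 phosphorylates MLKL in necroptosis, a separate lytic program. Transcript levels do not report activation of any of these proteins, which is controlled after translation.

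Whole transcriptome RNA sequencing was done on myeloid-derived suppressor cells (MDSC), immature myeloid cells that expand in cancer and restrain T cells, from C57BL/6 mice carrying orthotopic T110299 pancreatic tumors. This line stems from a genetically engineered mouse in which Cre under the Ptf1a promoter acts in pancreatic lineage cells. All mice bore tumors. Mice received i.v. on days 18 and 20 either 50 µg poly(I:C), a synthetic double-stranded RNA, complexed with polyethylenimine at an N/P ratio of 6 (poly(I:C)c, "treated"), or glucose alone ("untreated"). Polymorphonuclear PMN-MDSC (CD11b+Ly6CloLy6G+) and monocytic M-MDSC (CD11b+Ly6ChiLy6G-) were sorted from spleen and tumor, and untreated bulk tumor was lysed without sorting. Of 35 libraries 34 were used, with 4 in each of the 9 groups except treated spleen PMN-MDSC and treated tumor M-MDSC (n = 3 each), and 1 library of the latter group was left out because it held 10 counts. The MDSC libraries held 793070 to 4357105 counts and the bulk tumor libraries 3771590 to 8886115. Sample titles carry numbers that recur across compartments, cell types and bulk tumor, so that libraries of different groups may come from the same mice. The column names hold running numbers that no label ties to a single title. Libraries of the same mouse were therefore not matched, and all groups were compared as unpaired.

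The sorted populations were checked against marker genes before the 9 genes were read. Ly6g, the sorting antigen of PMN-MDSC, stood at 37.5 to 101 CPM (counts scaled to a common library size by the trimmed mean of M-values, TMM) in untreated and 360 to 470 CPM in treated spleen PMN-MDSC, but at 0 to 8.98 CPM in untreated and 5.06 to 86.4 CPM in treated tumor PMN-MDSC. The summed level of 8 PMN-MDSC markers was 15499 to 34456 CPM in untreated spleen PMN-MDSC and 1392 to 3839 CPM in untreated tumor PMN-MDSC, whose 7 macrophage markers summed to 10269 to 13217 CPM, above the 3358 to 7952 CPM of untreated tumor M-MDSC. The untreated libraries labelled tumor PMN-MDSC thus carried much macrophage marker RNA and, next to spleen PMN-MDSC, little PMN-MDSC marker RNA. Their PMN-MDSC markers still lay above the 198 to 463 CPM of untreated tumor M-MDSC, as did Csf3r (599 to 1813 against 146 to 228 CPM). In treated tumor PMN-MDSC, PMN-MDSC markers summed to 3141 to 11447 CPM and macrophage markers to 8651 to 17868 CPM. In treated tumor M-MDSC, library 3 stood apart with 26712 CPM of macrophage markers against 4962 and 10393 CPM in libraries 2 and 4, and with 2.72 CPM of Ly6c2 as the lowest of its group. In spleen PMN-MDSC, treatment coincided with a fall of all 7 macrophage markers, from 608 to 1793 CPM in sum to 99.5 to 268 CPM, and with a rise of 5 of 8 PMN-MDSC markers. Of 6 M-MDSC markers tested there, 3 fell and 1 rose. The M-MDSC markers summed to 834 to 2308 CPM untreated and 1050 to 1857 CPM treated, with overlap. The summed erythroid markers there stood at 61.6 to 157 CPM untreated and 0 to 5.2 CPM treated, and the dendritic cell markers at 28.6 to 81.6 CPM and 0.87 to 5.3 CPM. Markers of endothelial cells (29.8 to 73.8 and 13.0 to 24.3 CPM), T and NK cells (12.9 to 19.9 and 3.53 to 7.1 CPM) and acinar cells (1.61 to 5.75 and 0 to 1.01 CPM) were also lower in sum in these treated cells. In spleen M-MDSC, untreated and treated libraries held 5185 to 7812 and 2843 to 4285 CPM of 7 M-MDSC markers, 696 to 921 and 326 to 559 CPM of macrophage markers, 18.1 to 47.6 and 0.61 to 2.66 CPM of erythroid markers and 19.6 to 28.5 and 110 to 268 CPM of 3 endothelial markers. None of these ranges of sums overlapped, but single genes of a list went both ways: 2 of 7 M-MDSC markers rose and 3 fell, and 2 of 7 macrophage markers rose and 2 fell. In the tumor, the M-MDSC markers summed to 4606 to 8476 CPM in untreated and 1644 to 2958 CPM in treated PMN-MDSC, where 2 of 7 rose and 2 fell, and to 8968 to 11795 and 2695 to 4824 CPM in M-MDSC, where 1 of 7 fell. Dendritic cell markers summed to 15.2 to 25.2 and 0.98 to 12.9 CPM in tumor PMN-MDSC and to 12.8 to 28.8 and 1.58 to 7.74 CPM in tumor M-MDSC, all of them under the filter for testing. Endothelial markers summed to 20.4 to 41.3 CPM in untreated and 70.0 to 143 CPM in treated tumor M-MDSC, where 1 of 3 rose. Of 5 epithelial tumor cell markers, 1 fell in each tumor population, with sums of 98.0 to 320 and 68.4 to 96.6 CPM in M-MDSC and overlapping sums of 123 to 737 and 78.1 to 173 CPM in PMN-MDSC. Bulk tumor held 10.3 to 15.2 CPM of PMN-MDSC markers, with Ly6g and Retnlg at 0 in all 4 libraries. The part of these differences in the results for the 9 genes was not tested, and in such data a smaller share of a cell type and less RNA per cell cannot be told apart.

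**Figure D1:**
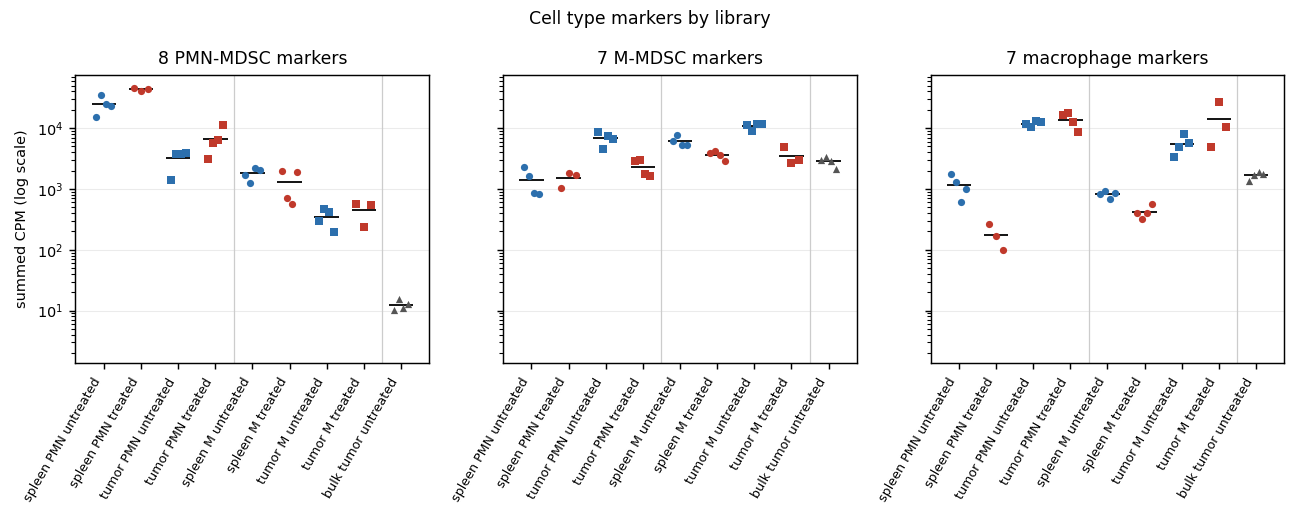
Summed CPM (log axis) of the markers of PMN-MDSC, M-MDSC and macrophages in each of 34 libraries. Each point is 1 library (circles spleen, squares tumor, triangles bulk tumor; blue untreated, red treated), and lines are group means. Untreated tumor PMN-MDSC lie at 10269 to 13217 CPM for macrophage markers, and treated spleen PMN-MDSC at 99.5 to 268 CPM.

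All 9 genes are protein coding and lie on 7 chromosomes of GRCm38. Nlrp3 (ENSMUSG00000032691.14; chromosome 11, 59541568 to 59566956, plus strand) and Nlrp1b (ENSMUSG00000070390.12; chromosome 11, 71153102 to 71230733, minus strand) share a chromosome, as do the neighbors Casp1 (ENSMUSG00000025888.5; chromosome 9, 5298517 to 5307265, plus strand) and Casp4 (ENSMUSG00000033538.13; chromosome 9, 5308828 to 5336783, plus strand). Nlrc4 (ENSMUSG00000039193.7) spans 74425438 to 74459142 on the minus strand of chromosome 17, and Pycard (ENSMUSG00000030793.4) 127989708 to 127993867 on the minus strand of chromosome 7. Gsdmd (ENSMUSG00000022575.4) spans 75862327 to 75867408 on the plus strand of chromosome 15. Mlkl (ENSMUSG00000012519.14) spans 111311797 to 111338177 on the minus strand of chromosome 8, and Ripk3 (ENSMUSG00000022221.14) 55784995 to 55788865 on the minus strand of chromosome 14. No member shared exonic bases with another gene on its own strand. Pycard overlapped Gm45205 on the opposite strand, which the strand-specific counting keeps apart. Nlrp1b has close copies, and 1.45% of its 50-base words also occurred in Nlrp1a or Nlrp1c-ps, so that its counts may include or lack some reads of these copies.

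The bases before the transcription start are shown for Casp1 and Casp4, because these neighbors were the members that rose in treated spleen PMN-MDSC. Both runs hold the 250 bases upstream of the RefSeq start on the plus strand (GRCm38.p6; Casp1 at chr9:5298267-5298516, Casp4 at chr9:5308599-5308848), written 5′ to 3′, without capitals because neither holds a searched motif.
Casp1: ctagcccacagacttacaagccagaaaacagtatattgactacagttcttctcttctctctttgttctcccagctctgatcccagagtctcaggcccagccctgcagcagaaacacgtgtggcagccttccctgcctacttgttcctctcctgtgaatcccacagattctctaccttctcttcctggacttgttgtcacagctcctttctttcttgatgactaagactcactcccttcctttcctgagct
Casp4: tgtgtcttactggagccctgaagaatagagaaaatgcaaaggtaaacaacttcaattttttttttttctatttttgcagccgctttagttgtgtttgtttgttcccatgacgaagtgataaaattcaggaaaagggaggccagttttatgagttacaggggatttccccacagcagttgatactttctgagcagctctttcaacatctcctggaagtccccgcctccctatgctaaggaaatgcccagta
The interferon-stimulated response element core GAAANNGAAA and the gamma-activated site TTCNNNGAA, which can overlap each other, were searched on both strands of the windows from 250 bases before to 50 after each start. Such windows were found for 8 of 9 members. No member's window held either motif, while 3.44% of 32851 windows held the first and 8.3% the second. This says only that these letters are not in these windows.

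The treatment comparisons address how systemic poly(I:C)c alters each sorted population. A gene was tested if it averaged at least 25 counts over the libraries compared, and called at an adjusted p under 0.05 in edgeR's quasi-likelihood test with Benjamini-Hochberg adjustment over all genes tested. In spleen M-MDSC 6 of 9 members were called, against 19.4% of all genes tested: 5 were higher (9.96% of all genes) and 1 lower (9.48%). In spleen PMN-MDSC 3 of 7 tested members were called (11.6% of all genes), 2 higher (6.1%) and 1 lower (5.52%). In tumor PMN-MDSC 1 of 9 was called (3.36% of all genes), higher (2.29%), and none lower (1.07%). In tumor M-MDSC 0 of 9 were called (2.88% of all genes; 1.82% higher and 1.06% lower). There, Nlrp3 had an unadjusted p under 0.05, and DESeq2 called it (adjusted p = 0.0497). The libraries of both groups did not overlap for 7 of 9 members in spleen M-MDSC (25.2% of all genes), 4 of 7 in spleen PMN-MDSC (24.9%), 2 of 9 in tumor PMN-MDSC (12%) and 1 of 9 in tumor M-MDSC (19.4%). Scaling by library totals instead of TMM moved the median log2 ratio of all genes tested by -0.24 in spleen PMN-MDSC and -0.099 in spleen M-MDSC and changed the sign of no called member. The median log2 fold change of the tested members was 0.66 in spleen M-MDSC, 0.77 in spleen PMN-MDSC, 0.25 in tumor PMN-MDSC and 0.25 in tumor M-MDSC, beside -0.03, 0.01, 0.01 and -0.00037 over all genes tested. Nlrc4 and Mlkl averaged under 25 counts in spleen PMN-MDSC and were not tested there under this filter.

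**Figure D2:**
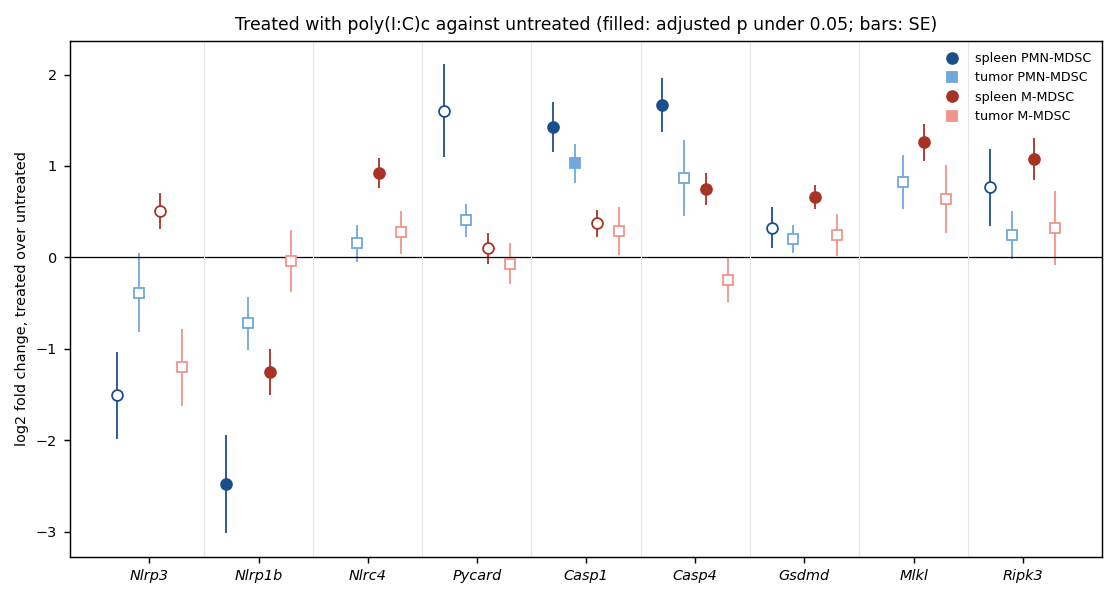
Log2 fold change of each member, treated over untreated, in the 4 sorted populations (edgeR; bars are standard errors; filled symbols have an adjusted p under 0.05; Nlrc4 and Mlkl were not tested in spleen PMN-MDSC). Nlrp1b is lowest in spleen PMN-MDSC at -2.48, and Casp4 highest in the same cells at 1.66.

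Of the sensors, Nlrp1b fell with treatment in both spleen populations. In untreated spleen PMN-MDSC it stood at 68.6, 48.2, 35.0 and 67.8 CPM, and in the treated cells at 3.48, 19.5 and 5.55 CPM. All treated libraries lay below all untreated ones, and the log2 fold change was -2.48 ± 0.54 (SE; adjusted p = 0.0223). With 1 library left out it ranged from -3.46 to -2.16. The treated values rest on 4, 33 and 11 counts. This call was lost without untreated library 1 (adjusted p = 0.055), untreated library 4 (0.0644) or treated library 3 (0.0888). In spleen M-MDSC it went from 66.9, 62.5, 52.2 and 62.7 CPM to 33.9, 19.7, 36.7 and 15.1 CPM. Again the groups did not overlap, and the gene fell by 1.26 ± 0.25 on the log2 scale (adjusted p = 0.00718), a call kept without any of the 8 libraries. In tumor PMN-MDSC the untreated libraries held 99.8, 98.0, 79.2 and 98.1 CPM and the treated ones 69.1, 64.9, 71.3 and 24.4 CPM, with no overlap but no call (log2 fold change -0.72 ± 0.29, adjusted p = 0.215). In tumor M-MDSC the untreated 62.6, 76.1, 65.0 and 52.3 CPM enclosed neither the lowest nor the highest of the treated 48.2, 104 and 36.1 CPM (log2 fold change -0.04 ± 0.34, adjusted p = 0.966). The 104 CPM belonged to library 3, the library with the most macrophage marker RNA, and without it the log2 fold change was -0.62 (adjusted p = 0.179).

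Nlrp3 encodes the sensor that responds to potassium efflux and other signs of membrane or lysosome damage, and its own transcription is a known control point. In spleen PMN-MDSC the untreated libraries held 323, 633, 380 and 481 CPM, and the treated ones 71.3, 306 and 90.4 CPM. The groups did not overlap, but treated library 2 came close to them, and the difference was not called (log2 fold change -1.51 ± 0.47, adjusted p = 0.076). Without that library it was called, at a log2 fold change of -2.38 (adjusted p = 0.00894), and with all libraries it was called by DESeq2 (adjusted p = 0.0124), in one fit over all MDSC groups (0.0159) and without a filter on low counts (9.24e-06). In tumor M-MDSC, Nlrp3 stood at 888, 513, 863 and 488 CPM without treatment and at 361, 125 and 421 CPM with it. These groups did not overlap either, and the log2 fold change was -1.20 ± 0.42 (adjusted p = 0.156), or -0.82 (adjusted p = 0.174) without library 3, the one at 125 CPM. It was called without a filter (adjusted p = 0.000183). In spleen M-MDSC the values were low and went the other way, from 46.8, 50.7, 36.6 and 49.9 CPM to 58.8, 90.4, 72.1 and 48.5 CPM, with overlap (log2 fold change 0.51 ± 0.19, adjusted p = 0.0932, but 0.0239 without treated library 4 and 0.0376 without a filter). In tumor PMN-MDSC the treated libraries spread widely, at 439, 487, 1160 and 1903 CPM, around the untreated 946, 1003, 1698 and 1443 CPM (log2 fold change -0.39 ± 0.43, adjusted p = 0.692). Without treated library 4 the log2 fold change was -0.89 (adjusted p = 0.234), and without treated library 1 it was -0.15 (adjusted p = 0.877).

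Nlrc4, the sensor partner of the NAIP proteins that bind flagellin and bacterial secretion system parts, rose in spleen M-MDSC. It went from 37.2, 27.1, 42.7 and 41.8 CPM to 69.2, 86.1, 76.7 and 60.2 CPM. All treated libraries were above all untreated ones, and the log2 fold change of 0.92 ± 0.17 (adjusted p = 0.00435) was called without any of the 8 libraries. In spleen PMN-MDSC the gene was near its lowest level, at 10.1, 5.03, 2.82 and 7.66 CPM untreated and 10.4, 15.4 and 16.2 CPM treated. The treated libraries were all higher, on 7 to 35 counts in each of the 7. With a minimum mean of 10 counts, which includes the gene, the log2 fold change was 1.2 ± 0.46 (adjusted p = 0.128). Tumor log2 fold changes were 0.15 ± 0.21 (PMN-MDSC, adjusted p = 0.754) and 0.27 ± 0.23 (M-MDSC, adjusted p = 0.579).

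**Figure D3:**
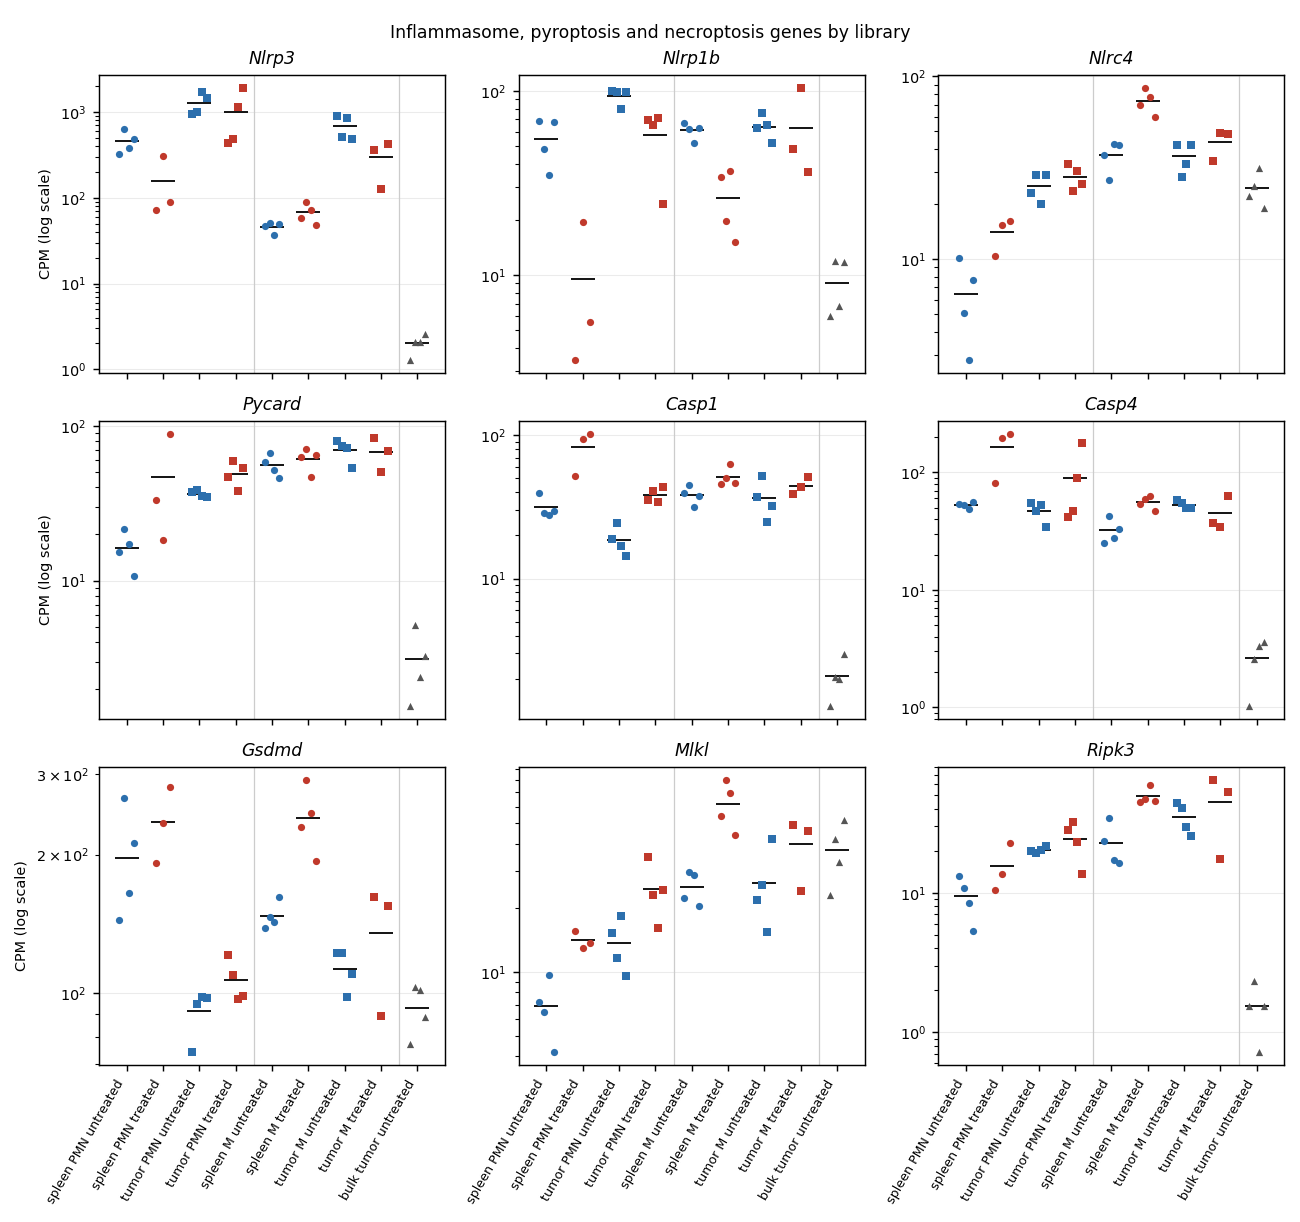
CPM (log axis, scale differs by panel) of each of the 9 members in each of 34 libraries. Each point is 1 library (circles spleen, squares tumor, triangles bulk tumor; blue untreated, red treated; gray bulk tumor), and lines are group means. Nlrp3 runs from 1.30 CPM in a bulk tumor library to 1903 CPM in a treated tumor PMN-MDSC library, and Gsdmd from 74.5 to 290.5 CPM.

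Pycard encodes ASC, the adaptor that bridges the sensors to caspase-1. None of the 4 treatment comparisons called it. In spleen PMN-MDSC it went from 15.3, 21.6, 17.3 and 10.7 CPM to 33, 18.3 and 88.4 CPM, where treated library 2 lay inside the untreated range and library 3 far above it. The log2 fold change was 1.61 ± 0.51 (adjusted p = 0.0774), and 2.02 (adjusted p = 0.0298) without library 2, but 0.68 (adjusted p = 0.364) without library 3, and with all libraries it was called by DESeq2 (adjusted p = 0.0226), in one fit over all MDSC groups (0.000918) and without a filter (8.28e-05). In the other populations its log2 fold change was 0.41 ± 0.18 (tumor PMN-MDSC, adjusted p = 0.258), 0.10 ± 0.17 (spleen M-MDSC, adjusted p = 0.713) and -0.07 ± 0.22 (tumor M-MDSC, adjusted p = 0.904).

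The inflammatory caspases Casp1 and Casp4 rose in spleen PMN-MDSC. Casp1 went from 39.8, 28.7, 27.8 and 29.5 CPM to 52.2, 94.7 and 102 CPM. Every treated library was above every untreated one, and the rise was 2.68-fold (log2 fold change 1.42 ± 0.27, adjusted p = 0.016). This call was lost without untreated library 4 (adjusted p = 0.0551) or treated library 3 (0.0717). Casp4 went from 53.3, 53.2, 48.7 and 55.5 CPM, a narrow range, to 80.9, 196 and 212 CPM. The groups did not overlap, and the rise was 3.17-fold (log2 fold change 1.66 ± 0.30, adjusted p = 0.0116), lost without treated library 3 (0.0605). In tumor PMN-MDSC Casp1 was the member that was called, at 18.8, 24.4, 16.8 and 14.4 CPM untreated and 35.3, 40.9, 34.0 and 43.9 CPM treated. The groups were well apart, with a log2 fold change of 1.03 ± 0.21 (adjusted p = 0.0249), but the call was lost without untreated library 1 (adjusted p = 0.0722), 3 (0.0931) or 4 (0.0797) or treated library 2 (0.0645). Casp4 in these cells went from 55.2, 47.1, 52.7 and 34.0 CPM to 41.8, 46.7, 88.7 and 179 CPM. Treated libraries 1 and 2 were inside the untreated range and libraries 3 and 4 above it (log2 fold change 0.87 ± 0.42, adjusted p = 0.31). Without library 4 the log2 fold change was 0.29 (adjusted p = 0.668), and with all libraries but no filter on low counts it was called (0.91, adjusted p = 0.00952). Libraries 3 and 4 had more summed PMN-MDSC markers (6336 and 11447 CPM against 3141 and 5592 CPM), whose part in the result was not tested.

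In spleen M-MDSC Casp4 rose and Casp1 was not called. Casp4 went from 24.9, 42.8, 27.8 and 32.8 CPM to 53.4, 59.3, 62.7 and 46.9 CPM. No treated library was as low as an untreated one, and the log2 fold change was 0.75 ± 0.18 (adjusted p = 0.0148). One fit over all MDSC groups put its adjusted p at 0.15. Casp1 went from 39.8, 45.2, 31.5 and 37.5 CPM to 45.7, 50.0, 62.7 and 46.6 CPM, also without overlap but by a smaller step (log2 fold change 0.37 ± 0.15, adjusted p = 0.113). In tumor M-MDSC the log2 fold changes were 0.29 ± 0.27 for Casp1 (adjusted p = 0.609) and -0.25 ± 0.24 for Casp4 (adjusted p = 0.642). The ratio of Casp4 to Casp1 counts averaged 1.71 ± 0.25 (SD, n = 4) in untreated and 1.90 ± 0.30 (SD, n = 3) in treated spleen PMN-MDSC. In untreated tumor PMN-MDSC the ratio was 2.59 ± 0.55, in untreated spleen M-MDSC 0.83 ± 0.14 and in untreated tumor M-MDSC 1.54 ± 0.38 (SD, n = 4 each).

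Gsdmd encodes gasdermin D, the substrate of both caspases. In spleen M-MDSC it rose from 138, 146.5, 143 and 161 CPM to 230, 290.5, 246 and 194 CPM. The groups did not overlap, and the log2 fold change was 0.66 ± 0.13 (adjusted p = 0.00736). In spleen PMN-MDSC, where its level was already high, the untreated 144, 266, 165 and 212 CPM overlapped the treated 191, 235 and 280 CPM (log2 fold change 0.32 ± 0.22, adjusted p = 0.395). For the tumor, the fit gave log2 fold changes of 0.20 ± 0.16 (PMN-MDSC, adjusted p = 0.545) and 0.25 ± 0.23 (M-MDSC, adjusted p = 0.621).

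The necroptosis genes rose together in spleen M-MDSC. Mlkl, which encodes the membrane-disrupting effector, went from 22.3, 29.5, 28.5 and 20.5 CPM to 54.1, 80.0, 69.4 and 43.9 CPM. Treated and untreated libraries were clearly apart, and the rise was 2.39-fold (log2 fold change 1.26 ± 0.20, adjusted p = 0.00247). Ripk3, which encodes the kinase that activates MLKL, went from 23.6, 34.2, 17.3 and 16.4 CPM to 44.7, 47.1, 58.8 and 45.4 CPM. Again no library overlapped, and the rise was 2.11-fold (log2 fold change 1.07 ± 0.23, adjusted p = 0.00913). Both calls, like that of Gsdmd, were kept without any of the 8 libraries. In spleen PMN-MDSC, Mlkl averaged under 25 counts, at 7.21, 6.47, 9.66 and 4.21 CPM untreated and 15.7, 13.0 and 13.6 CPM treated, with all treated libraries higher. With a minimum mean of 10 counts, its log2 fold change was 1.13 ± 0.37 (adjusted p = 0.0857). Ripk3 in these cells overlapped between groups (log2 fold change 0.77 ± 0.42, adjusted p = 0.282). In tumor PMN-MDSC Mlkl stood at 15.3, 11.6, 18.3 and 9.57 CPM untreated and 34.6, 23, 16.1 and 24.4 CPM treated, with overlap at 1 treated library (log2 fold change 0.82 ± 0.29, adjusted p = 0.17). The log2 fold changes that remain were 0.25 ± 0.26 for Ripk3 in tumor PMN-MDSC (adjusted p = 0.672), and 0.64 ± 0.37 for Mlkl (adjusted p = 0.39) and 0.32 ± 0.41 for Ripk3 (adjusted p = 0.719) in tumor M-MDSC. In the last group library 3 was lowest for both genes, at 24.1 CPM of Mlkl against 49.4 and 46 CPM and at 17.6 CPM of Ripk3 against 64.1 and 52.8 CPM, and without it the log2 fold changes were 0.94 (adjusted p = 0.183) and 0.72 (adjusted p = 0.162). Without library 2 they were 0.50 (adjusted p = 0.555) and 0.01 (adjusted p = 0.994), and without library 4 they were 0.55 (adjusted p = 0.643) and 0.21 (adjusted p = 0.899).

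Whether treatment effects differed between populations was tested as an interaction. Between PMN-MDSC and M-MDSC of the spleen, 2 of 9 members were called, against 10.9% of all genes tested. The effect on Nlrp3 was lower in PMN-MDSC by 1.92 ± 0.53 on the log2 scale (adjusted p = 0.0336), and that on Casp1 was higher by 1.13 ± 0.32 (adjusted p = 0.0366). DESeq2 also called Pycard (log2 difference 1.5, adjusted p = 0.0437; 1.58 and 0.0672 by edgeR), as did one fit over all MDSC groups (adjusted p = 0.0231) and edgeR without a filter (0.00196) or without treated PMN-MDSC library 1 (0.0418) or 2 (0.015), while without treated PMN-MDSC library 3 the difference was 0.67 (adjusted p = 0.283). The calls of Nlrp3 and Casp1 lay close to the threshold, and that of Casp1 was lost without a filter on low counts (adjusted p = 0.0685). Nlrp1b was called without a filter (adjusted p = 0.0435) or without treated PMN-MDSC library 2 (0.0306), and Casp4 without treated PMN-MDSC library 1 (0.00561). That of Nlrp3 was lost without untreated PMN-MDSC library 2 or 4, untreated M-MDSC library 1, 2, 3 or 4, treated M-MDSC library 2 or 3 or treated PMN-MDSC library 3, at adjusted p of 0.051 to 0.0845. That of Casp1 was lost without untreated PMN-MDSC library 2, 3 or 4, untreated M-MDSC library 1, 2 or 4, treated M-MDSC library 1, 2 or 4 or treated PMN-MDSC library 2 or 3, at adjusted p of 0.052 to 0.101. Between tumor and spleen 0 of 9 members were called in PMN-MDSC, against 3.5% of all genes, where 3 had an unadjusted p under 0.05 and DESeq2 called 0. In M-MDSC the count was also 0 of 9, against 0.79%, with 4 at an unadjusted p under 0.05, and DESeq2 called Nlrp3 (log2 difference -1.74, adjusted p = 0.0189) and Casp4 (-1.03, adjusted p = 0.0474). Between PMN-MDSC and M-MDSC of the tumor it was 0 of 9, against 0.0239%, with 1 at an unadjusted p under 0.05 and 0 by DESeq2. By edgeR with all libraries and the filter, an effect called in spleen and not in tumor was thus not shown to differ between them. Without the filter edgeR called this difference for Nlrp1b in PMN-MDSC (log2 difference 1.78, adjusted p = 0.00151), and for Nlrp1b (adjusted p = 0.0144) and Nlrp3 in M-MDSC. With the filter it called Nlrp1b in PMN-MDSC without treated spleen library 2 (adjusted p = 0.0306) or treated tumor library 4 (0.0415), and Casp4 in M-MDSC without treated tumor library 4 (0.0295).

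Without treatment, the 9 genes were compared between cells of tumor and spleen. Per the study's methods, tumors were minced and mechanically dissociated with a kit, while spleens were strained and red blood cells lysed. Site and tissue handling thus cannot be told apart in either cell type, and the part of handling was not tested. In PMN-MDSC 7 of 8 tested members were called (59.1% of all genes), 5 higher in tumor (29.4%) and 2 lower (29.7%), and these 7 had libraries that did not overlap (55.1%). Nlrp3, at 946 to 1698 CPM in tumor against 323 to 633 CPM in spleen, was 3.15-fold higher (log2 fold change 1.65 ± 0.26, adjusted p = 0.000366). Nlrc4 had the largest step, with a log2 fold change of 2.06 ± 0.35 (adjusted p = 0.000636) between 19.9 to 28.8 CPM and 2.82 to 10.1 CPM. Both sensor genes had separate ranges in tumor and spleen. Pycard (log2 fold change 1.35 ± 0.23, adjusted p = 0.000564), Ripk3 (1.25 ± 0.29, 0.00409) and Nlrp1b (0.93 ± 0.23, 0.00544) were also higher in tumor. Gsdmd was lower, at 74.5 to 98.0 CPM against 144 to 266 CPM (log2 fold change -0.93 ± 0.20, adjusted p = 0.00221). Casp1 was lower as well, at 14.4 to 24.4 CPM against 27.8 to 39.8 CPM (log2 fold change -0.61 ± 0.24, adjusted p = 0.0436), although this call was kept without only 2 of the 8 libraries: it was lost without spleen library 1, 2 or 4 or tumor library 1, 3 or 4, at adjusted p of 0.0517 to 0.125. Casp4 was not called (log2 fold change 0.01 ± 0.19, adjusted p = 0.981). Mlkl was below the filter of 25 counts, and with a minimum mean of 10 counts it was called, with a log2 fold change of 1.10 ± 0.34 (adjusted p = 0.016). Beside these differences, macrophage markers were at 10269 to 13217 CPM in the tumor and 608 to 1793 CPM in the spleen libraries, and PMN-MDSC markers at 1392 to 3839 CPM and 15499 to 34456 CPM, and their part in the result was not tested.

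In M-MDSC 3 of 9 members were called between tumor and spleen (28.4% of all genes), 2 higher (15.7%) and 1 lower (12.7%), each without overlap of libraries (31.4%). Nlrp3 stood at 888, 513, 863 and 488 CPM in tumor against 46.8, 50.7, 36.6 and 49.9 CPM in spleen. The lowest tumor library was several times above the highest spleen library, and the difference was 15-fold (log2 fold change 3.91 ± 0.24, adjusted p = 3.24e-07). Casp4 was higher by 0.72 ± 0.18 on the log2 scale (adjusted p = 0.00958), at 49.5 to 57.7 CPM against 24.9 to 42.8 CPM, a call lost in one fit over all MDSC groups (adjusted p = 0.129). Gsdmd was lower, at 98.0 to 122 CPM against 138 to 161 CPM (log2 fold change -0.38 ± 0.13, adjusted p = 0.0394). That call was lost without spleen library 1, 2, 3 or 4 or tumor library 3, at adjusted p of 0.0581 to 0.116, and also in one fit (0.163), without a filter (0.102) and at a mean of at least 10 counts (0.0596). The other 6 members had log2 fold changes of -0.09 to 0.65 and adjusted p of 0.0878 or more. Ripk3 was called as higher in tumor without a filter (adjusted p = 0.0301) or without spleen library 2 (0.0208), and Pycard without tumor library 4 (0.0347). Macrophage markers summed to 3358 to 7952 CPM in these tumor and 696 to 921 CPM in these spleen libraries. M-MDSC markers summed to 8968 to 11795 and 5185 to 7812 CPM, and PMN-MDSC markers to 198 to 463 and 1251 to 2207 CPM. Their part in the result was not tested.

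Between cell types of the untreated spleen, 6 of 9 members were called (64.4% of all genes), 2 higher in PMN-MDSC (30.9%) and 4 lower (33.4%), all without overlap of libraries (58.1%). Nlrp3 was 8.48-fold higher in PMN-MDSC (log2 fold change 3.08 ± 0.20, adjusted p = 2.44e-06). Nlrc4 (log2 fold change -2.65 ± 0.34, adjusted p = 0.000131), Mlkl (-2.03 ± 0.27, 0.000169), Pycard (-2.0 ± 0.21, 3.96e-05) and Ripk3 (-1.43 ± 0.34, 0.00458) were lower in PMN-MDSC. These 4 genes and Nlrp3 kept their calls without any of the 8 libraries. Casp4 was slightly higher in PMN-MDSC (log2 fold change 0.52 ± 0.19, adjusted p = 0.0306), a call lost without M-MDSC library 1, 3 or 4 or PMN-MDSC library 4 (adjusted p of 0.0551 to 0.0901) and in one fit over all MDSC groups (adjusted p = 0.131). Casp1 was called as lower in PMN-MDSC without PMN-MDSC library 1 (adjusted p = 0.00787) or M-MDSC library 3 (0.0423). With CPM taken by library totals instead of TMM, the median log2 ratio of all genes tested between these cell types moved by -0.57, which left Casp4 at 0.15 and put Gsdmd, not called at 0.20 ± 0.16 (adjusted p = 0.282), at -0.18.

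In the untreated tumor 5 of 9 members were called (13% of all genes), 2 higher in PMN-MDSC (7.25%) and 3 lower (5.73%). These and Gsdmd, 6 of 9, had libraries that did not overlap (19.9%). Pycard was lower in PMN-MDSC, at 34.5 to 38.8 CPM against 53.6 to 80.0 CPM (log2 fold change -0.93 ± 0.17, adjusted p = 0.00344), and was the member whose call was kept without any of the 8 libraries. Nlrp3 (log2 fold change 0.91 ± 0.25, adjusted p = 0.0301) and Nlrp1b (0.56 ± 0.16, 0.0377) were higher, and Casp1 (-0.94 ± 0.27, 0.0354) and Ripk3 (-0.77 ± 0.22, 0.0369) lower. These 4 calls were kept without 4, 3, 3 and 2 of the 8 libraries. That of Nlrp3 was lost without PMN-MDSC library 3 or 4 or M-MDSC library 2 or 4, that of Nlrp1b without PMN-MDSC library 1, 2 or 4 or M-MDSC library 1 or 3, that of Casp1 without PMN-MDSC library 1, 3 or 4 or M-MDSC library 1 or 2, and that of Ripk3 without PMN-MDSC library 1, 2, 3 or 4 or M-MDSC library 1 or 2. The adjusted p then lay between 0.0574 and 0.128. One fit over all MDSC groups lost Nlrp3 (adjusted p = 0.185), Nlrp1b (0.346) and Ripk3 (0.156), and Nlrp1b was also lost without a filter on low counts (0.155). Macrophage markers summed to 10269 to 13217 CPM in these PMN-MDSC and 3358 to 7952 CPM in these M-MDSC libraries. PMN-MDSC markers summed to 1392 to 3839 and 198 to 463 CPM, and M-MDSC markers to 4606 to 8476 and 8968 to 11795 CPM. Their part in the result was not tested.

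**Figure D4:**
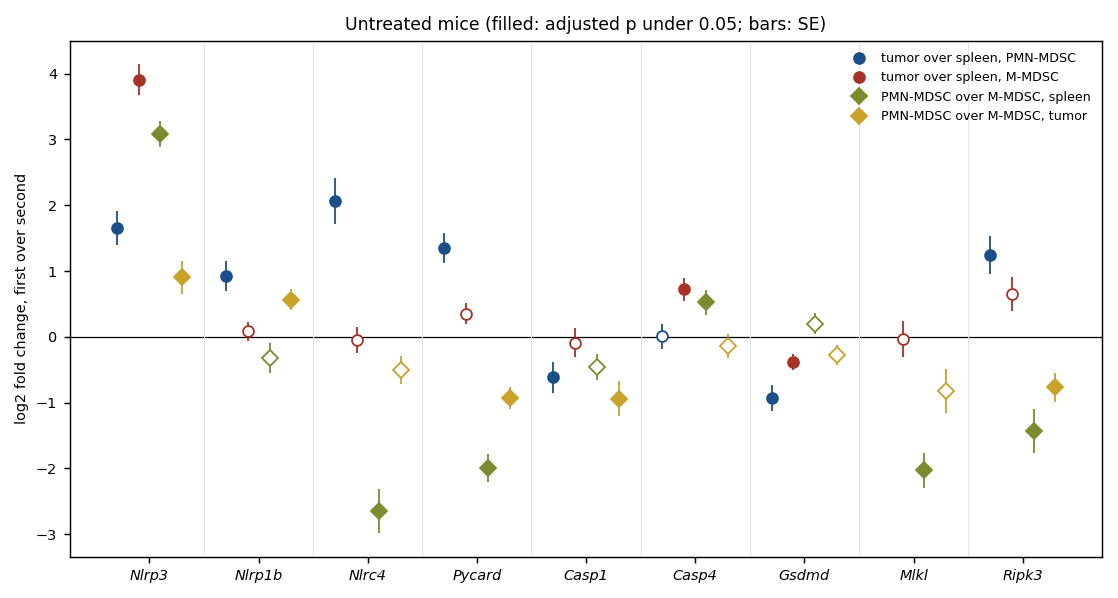
Log2 fold change of each member in untreated mice, tumor over spleen (circles) and PMN-MDSC over M-MDSC (diamonds), from edgeR with standard errors as bars; filled symbols have an adjusted p under 0.05, and Mlkl was not tested between tumor and spleen PMN-MDSC. Nlrp3 lies above 0 in all 4 comparisons, up to 3.91 in M-MDSC.

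Bulk tumor gives the level of the genes in tissue lysed without sorting. Cell content and handling cannot be told apart in its comparison with sorted cells. Against tumor M-MDSC 8 of 9 members were called (69.2% of all genes), all lower (31%) and none higher (38.2%), and 6 had libraries that did not overlap (64.8%). Against tumor PMN-MDSC 7 of 9 were called (69.7%), 6 lower (32.8%) and 1 higher (36.9%), and these 7 did not overlap (66.4%). Nlrp3 held 1.30, 2.06, 2.09 and 2.56 CPM in the bulk tumor libraries, on 8 to 25 counts. The log2 fold change was -8.53 ± 0.37 against tumor M-MDSC (adjusted p = 1.39e-08) and -9.48 ± 0.35 against tumor PMN-MDSC (adjusted p = 4.14e-09). Pycard, Casp1, Casp4 and Ripk3 had log2 fold changes of -4.71 to -4.22 against tumor M-MDSC, and Nlrp1b of -2.97. In bulk tumor Pycard held 12 to 32 counts per library, Casp1 8 to 29, Casp4 8 to 35 and Ripk3 7 to 15. With 1 library left out, Ripk3 and Casp1 passed the filter against tumor PMN-MDSC in 5 and 6 of 8 fits. Gsdmd, Nlrc4 and Mlkl were closer to the sorted cells. Gsdmd stood at 77.6, 103, 101 and 88.8 CPM in bulk tumor (log2 fold change -0.42 ± 0.16 against M-MDSC, adjusted p = 0.0333, lost without M-MDSC library 1, 2 or 3 or bulk library 1, 3 or 4 at adjusted p of 0.0531 to 0.193). This call was also lost with DESeq2 (adjusted p = 0.0776), RLE normalization, the scaling of DESeq2 in edgeR (0.0914), and no filter on low counts (0.44). Nlrc4 stood at 22.2, 25, 31.6 and 19.1 CPM (log2 fold change -0.69 ± 0.21 against M-MDSC, adjusted p = 0.0127, but 0.0883 without bulk library 4 and 0.118 without a filter). Mlkl stood at 23, 42.3, 32.8 and 52.1 CPM, above tumor PMN-MDSC (log2 fold change 1.25 ± 0.30, adjusted p = 0.00271) and not called against tumor M-MDSC (0.48 ± 0.32, adjusted p = 0.194, but 0.0337 without a filter). Bulk tumor libraries held 4405 to 6511 CPM of 5 epithelial tumor cell markers, against 97.96 to 320 CPM in untreated tumor M-MDSC.

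Levels of different genes were compared as FPKM, the TMM-scaled CPM divided by the length in kilobases of all annotated exons of a gene, merged over its transcripts. This length was 4057 bases for Nlrp3, 3800 for Pycard (3 merged exons) and 3710 for Casp4. Where it exceeds the length of the transcripts present, the FPKM is understated. Ranks and shares across genes depend on it, and other lengths were not tested. In untreated tumor PMN-MDSC Nlrp3 stood at 314 FPKM and made up 73.5% ± 5.6 (SD, n = 4) of the summed FPKM of the 9 genes. Its share was 52.4% ± 9.3 in untreated tumor M-MDSC, 44.0% ± 4.1 in untreated spleen PMN-MDSC and 7.04% ± 0.68 in untreated spleen M-MDSC (SD, n = 4 each). By this measure, spleen M-MDSC and bulk tumor were led by Gsdmd instead, at 61.9 and 39.0 FPKM. In treated spleen PMN-MDSC the share of Nlrp3 was 13.7% ± 9.1 (SD, n = 3), while Gsdmd at 99.1, Casp1 at 55.4 and Casp4 at 43.9 FPKM stood above its 38.4 FPKM.

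**Figure D5:**
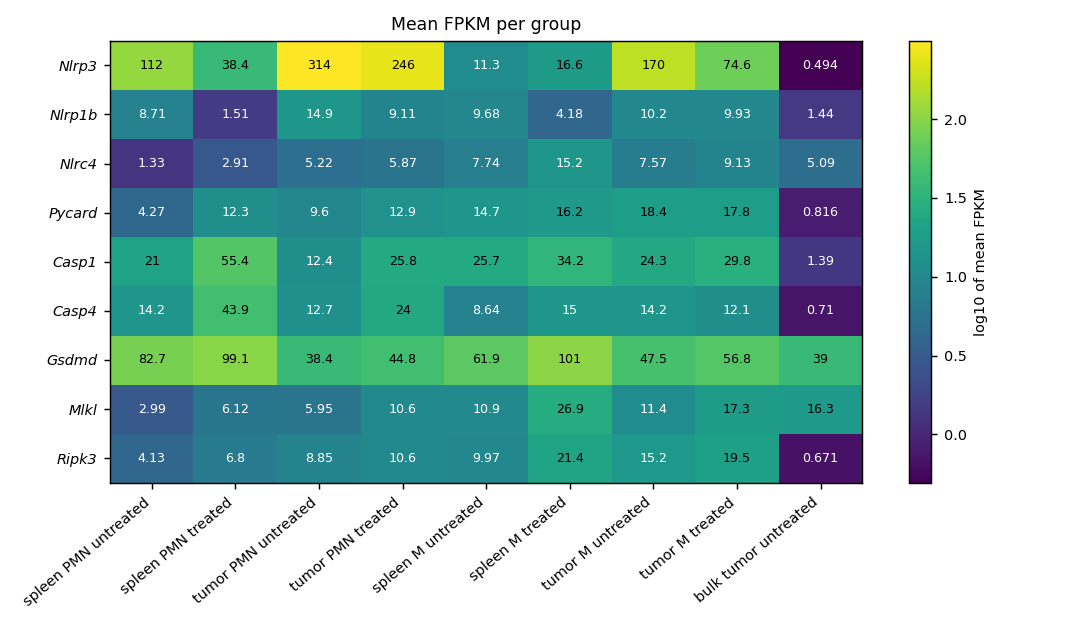
Mean FPKM of the 9 members in the 9 groups, with the value printed in each cell and color on a log10 scale. By merged exon length, Nlrp3 is the highest member in the tumor PMN-MDSC and tumor M-MDSC columns, and Gsdmd in spleen M-MDSC and bulk tumor. This order depends on the length used.

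Ordered by mean CPM over the 9 groups, Nlrp3 spanned the widest range, 635-fold between untreated tumor PMN-MDSC and bulk tumor, and Gsdmd the narrowest, 2.63-fold between treated spleen M-MDSC and untreated tumor PMN-MDSC. Neighbors in these orders mostly overlapped: 8 of 8 pairs of neighbors did for Gsdmd, 7 of 8 for Nlrp3, Nlrp1b, Casp4, Mlkl and Ripk3, 6 of 8 for Pycard and Casp1, and 5 of 8 for Nlrc4. Bulk tumor was the lowest group, apart from its neighbor, for Nlrp3, Pycard, Casp1, Casp4 and Ripk3. Treated spleen M-MDSC was the highest group for Nlrc4, Gsdmd, Mlkl and Ripk3, and apart from its neighbor for Nlrc4, at 73.0 ± 11 CPM against 43.9 ± 8.2 CPM in treated tumor M-MDSC (SD). Treated spleen PMN-MDSC was the highest for Casp1 and Casp4, in both cases overlapping the next group.

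Over the 30 MDSC libraries, log2(CPM + 1) of the members fell into sets by Pearson correlation. This is a description over libraries that share compartments and treatment and may share mice. Nlrc4, Mlkl, Ripk3 and Pycard correlated with each other at r of 0.73 to 0.82, and Casp1 and Gsdmd at 0.62, whereas Nlrp1b ran against Casp1 (-0.65), Gsdmd (-0.65) and Casp4 (-0.60). Among the 8533 genes compared, those most like Nlrp3 were Pde4b (r = 0.97), Slc20a1 (0.96) and Junb (0.96), and those most like Casp1 were Slfn5 (0.91), Gm43197 (0.90) and Gbp9 (0.88). Nlrp1b was most like Nlrp1c-ps (0.92), the pseudogene with which it shares 0.239% of its 50-base words. Among the leading genes for other members were Tifa for Nlrc4 (0.93), Snx1 for Pycard (0.94), Stfa2 for Casp4 (0.86) and Cnp for Mlkl (0.91). Ripk3 was most like the proteasome genes Psmc4 (0.90), Psmd2 (0.89) and Psmb10 (0.89).

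Other genes of the same pathways were counted from a list of 44 sensors, caspases, gasdermins, substrates, regulators, inhibitors and necroptosis genes. With treatment, 6 of 31 tested were called in spleen PMN-MDSC (11.6% of all genes), all higher, among them Zbp1, Ifi208 and Ifi213. In tumor PMN-MDSC 4 of 36 were called (3.36% of all genes), with Zbp1, Ifi208 and Ifi213 higher and Malt1 lower. In spleen M-MDSC 10 of 36 were called (19.4% of all genes), 7 higher, among them Il18 and the membrane rupture gene Ninj1, and 3 lower (Nek7, Casp6 and Txnip). In tumor M-MDSC 4 of 34 were called (2.88% of all genes), Ifi208 and Ifi213 higher and Il1b and Casp6 lower. Zbp1, the nucleic acid sensor that engages RIPK3, rose from 104 ± 83 to 922 ± 380 CPM in spleen PMN-MDSC (SD, n = 4 and 3; log2 fold change 3.22 ± 0.51, adjusted p = 0.00772) and from 145 ± 52 to 582 ± 175 CPM in spleen M-MDSC (n = 4 each; 1.96 ± 0.28, adjusted p = 0.00145). The PYHIN family genes Ifi208 and Ifi213 had been listed as inhibitors under their other names Pydc3 and Pydc4, and were the ones called in all 4 populations. Ifi208 rose in spleen PMN-MDSC from 4.86 ± 2.15 to 403 ± 243 CPM (log2 fold change 6.37 ± 0.54, adjusted p = 0.00126). Il1b, the main substrate of caspase-1, fell in tumor M-MDSC from 4813 ± 1159 to 1094 ± 277 CPM (SD, n = 4 and 3; log2 fold change -2.15 ± 0.30, adjusted p = 0.0111).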

How the data were processed

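RNA of sorted MDSC and of bulk tumor was sequenced from rRNA-depleted libraries made with a stranded total RNA kit for picogram input, without molecular identifiers. Per the labels and the study's methods, the authors mapped reads to GRCm38 with ContextMap and BWA and deposited 1 table of whole read counts per gene, counted with strand by featureCounts (Subread 1.4.6-p3), not normalized and without pooling. Symbols and merged exon lengths came from a GENCODE annotation of GRCm38, matched for 53274 of 53379 identifiers. Column names gave each library its group, and libraries were numbered within groups in column order, as names only. The treatment protocol gives glucose for the controls, which the sample labels and the study call untreated. Counts were analyzed with edgeR 4.0.16 (R 4.3.3): TMM factors, a minimum mean of 25 counts per gene in the libraries of a comparison, a robust quasi-likelihood F-test on those libraries (4 groups for interactions), Benjamini-Hochberg adjustment over all genes tested, and a call at adjusted p under 0.05. Standard errors of log2 fold changes were taken from the F statistic. CPM and FPKM shown were scaled by TMM over all 34 libraries. No 2 columns were identical, and 48 pairs of libraries within groups differed by 6.19 to 49.5 chi-square per degree of freedom. Per the study's methods and figure legends, libraries of a group came from separate mice. Alternatives were DESeq2 1.42.0, RLE factors, no filter, a mean of at least 10 counts, no robust estimation, 1 fit over all groups, adjusted p under 0.001 with at least 2-fold, and each library left out. Ratios by library totals were added after seeing the data. The scripts were tested on simulated data. All 9 members were named in every comparison; of other pathway genes, up to 3 called genes of smallest adjusted p were given with values, and genes of single treatment lists were named after their values were seen. The members and lists were chosen with earlier results of these data known. Some alleles and genes are not reported here.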

Additional observations from a re-analysis of the deposited data

Results flagged for a closer look

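In the spleen, the treatment effect on Nlrp3 differed between PMN-MDSC and M-MDSC by -1.92 on the log2 scale, and that on Casp1 by 1.13, by the test of the interaction itself. Of 63 sets of 4 libraries of 1 gene in 1 group, 5 held a library far from the others by Dixon's criterion (a gap of over 0.829 of the range), and chance flags about 1 in 20 such sets. These libraries were the lowest for Nlrp1b in untreated tumor PMN-MDSC (79.2 CPM, next 98.0 CPM) and in treated tumor PMN-MDSC (24.4 CPM, next 64.9 CPM). The others were the highest for Casp1 in untreated spleen PMN-MDSC (39.8 CPM, next 29.5 CPM), the lowest for Gsdmd in untreated tumor PMN-MDSC (74.5 CPM, next 94.7 CPM) and the highest for Ripk3 in treated spleen M-MDSC (58.8 CPM, next 47.1 CPM).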

How the results depend on the processing

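No paired analysis was possible because the count columns carry no mouse number but running numbers that no label ties to a mouse, so that libraries of 1 mouse could not be matched by name. Calls of Casp1, Casp4 and Nlrp1b in spleen PMN-MDSC rest on 3 treated libraries of 1561674 to 2777637 counts, and Nlrc4 and Mlkl fell under the filter of 25 counts there. Where a value moved, the cause was not tested. Of 861 values of members under the other settings, 793 kept direction and side of the threshold, 43 fell below it, 21 passed it and 4 changed sign.

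With DESeq2, 5 members were called for treatment in spleen PMN-MDSC, 1 in tumor M-MDSC and 2 for the difference of tumor and spleen in M-MDSC. Without a filter on low counts the numbers were 5 in spleen PMN-MDSC, 2 in tumor PMN-MDSC, 1 in tumor M-MDSC, 1 for the difference of tumor and spleen in PMN-MDSC and 2 for that in M-MDSC. One fit over all groups called 5 in spleen PMN-MDSC, 1 between tumor and spleen M-MDSC and 2 between cell types of the tumor. At adjusted p under 0.001 and at least 2-fold, 0 members were called for treatment in spleen PMN-MDSC, tumor PMN-MDSC and spleen M-MDSC, 0 between cell types of the tumor, 0 for the difference of cell types in spleen, 3 between tumor and spleen PMN-MDSC and 1 in M-MDSC. The log2 fold change of Casp4 between tumor and spleen PMN-MDSC, near 0, became -0.088 without a filter, -0.043 at a mean of at least 10 counts and -0.025 in one fit, and that of Gsdmd in bulk tumor against PMN-MDSC became 0.039 without a filter. No library left out or other setting turned a called member.

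Leaving out 1 library at a time, the number of members called ranged from 0 to 5 in spleen PMN-MDSC (0 without treated library 3), 0 to 1 in tumor PMN-MDSC, 1 to 4 between cell types of the tumor, 0 to 1 for both differences of tumor and spleen, and 0 to 4 for the difference of cell types in spleen. Log2 values that crossed 0, none of them called, ranged in tumor M-MDSC treatment from -0.21 to 0.11 (Pycard) and -0.62 to 0.28 (Nlrp1b), and between tumor and spleen from -0.044 to 0.16 (Casp4, PMN-MDSC), -0.30 to 0.19 (Mlkl, M-MDSC), -0.32 to 0.087 (Casp1), -0.18 to 0.038 (Nlrc4) and -0.0097 to 0.15 (Nlrp1b). Differences of tumor and spleen ranged from -0.24 to 0.042 (Gsdmd, PMN-MDSC), -0.26 to 0.14 (Casp1, M-MDSC) and -0.35 to 0.0091 (Pycard), and differences of cell types from -0.62 to 0.080 (Ripk3, spleen), -0.17 to 0.65 (Nlrc4, spleen), -0.11 to 0.38 (Mlkl, tumor), -0.48 to 0.27 (Ripk3, tumor), -0.28 to 0.099 (Gsdmd, tumor) and -0.27 to 0.011 (Nlrc4, tumor).

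Counts over all genes depended more on the setting. For treatment in spleen PMN-MDSC 844 genes were called, against 1354 with DESeq2, 1818 without a filter, 1663 in one fit and 3 by the strict rule. In tumor PMN-MDSC these were 279 against 613 (DESeq2), 864 (no filter) and 20 (strict), in spleen M-MDSC 1716 against 220 (strict), and in tumor M-MDSC 241 against 797 (DESeq2), 1064 (no filter), 768 (one fit) and 1 (strict). Between tumor and spleen PMN-MDSC it was 4714 against 1727 (strict), in M-MDSC 2357 against 3662 (no filter) and 714 (strict), between cell types 5523 against 1993 (strict) in spleen and 990 against 1658 (no filter) and 126 (strict) in tumor, and for bulk tumor 7767 against 11698 (no filter) and 4514 (strict) with PMN-MDSC and 7630 against 4617 (strict) with M-MDSC. For differences of tumor and spleen it was 282 against 501 (DESeq2), 676 (no filter), 476 (one fit) and 0 (strict) in PMN-MDSC and 69 against 307, 659, 126 and 1 in M-MDSC, and for differences of cell types 914 against 1590 (no filter) and 10 (strict) in spleen and 2 against 22 (DESeq2), 161 (no filter) and 0 (the other settings named, without robust estimation and at a mean of at least 10 counts) in tumor. With 1 library left out, treatment calls ranged from 307 to 1002 in spleen PMN-MDSC, 110 to 276 in tumor PMN-MDSC, 1088 to 1808 in spleen M-MDSC and 30 to 531 in tumor M-MDSC, calls between cell types of the tumor from 607 to 1244, and calls of differences from 75 to 447 (tumor and spleen, PMN-MDSC), 7 to 250 (M-MDSC), 570 to 1414 (cell types, spleen) and 0 to 24 (cell types, tumor). Ratios by library totals were added after seeing the data. They moved the median log2 ratio of all genes tested by 0.295 between tumor and spleen PMN-MDSC, -0.26 in M-MDSC and -0.57 between cell types of the spleen, and turned the sign of 6 member values that were not called.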
